A study of Homo sapiens with 2 samples.

Results

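The mRNAs described here encode the proteins that carry cargo between nucleus and cytoplasm and the factors that start, regulate and police translation. The rule takes them by gene symbol, but it was written with earlier results of these data known. It covers the nucleoporins, exportins, importins, Ran-binding proteins and NXF genes and the EIF, EEF, PABP, LARP, PUM, UPF and SMG genes, leaving out EEF1A1. Of the 1658 gene symbols in the list of enriched regions of a catenin immunoprecipitation (IP), 48 fell under this rule. The list comes from MDA-MB-231, a long-established line of human breast cancer cells, without any treatment named in the labels. The series has 2 samples, titled for catenin and for input, with 1 library each, and both share the cell line. The file used here belongs to the catenin IP, the input's own values were not analysed here, and neither labels nor file name the antibody. The IP therefore has no replicate, and no difference between genes below has a replicate check or a test across samples. Of 10 mesenchymal and basal marker genes 4 had a peak (EGFR, FN1, MSN and ZEB1), and of 10 luminal epithelial markers 0 had one. Over all protein-coding genes of a reference table the share with a peak was 7.89%, and 0 of 10 is near it. A list of enriched regions shows no level for a gene without a peak. The markers without one, 6 mesenchymal and all luminal, thus go neither for nor against the cell line label.

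Nuclear pores are rings of nucleoporins with filaments on the cytoplasmic face and a basket on the nuclear face. Importins and exportins carry proteins and some RNAs through them, with a direction set by the GTPase Ran, and NXF1 takes bulk mRNA out. In the cytoplasm the eIF4F complex binds the cap, eIF3 and eIF2 bring in the small ribosomal subunit and the initiator tRNA, and the elongation factors then drive the ribosome along. PABP and LARP proteins act at the poly(A) tail or at the cap, PUM proteins repress mRNAs that carry their motif, and the UPF and SMG proteins remove mRNAs with premature stop codons. Beta-catenin itself enters the nucleus by direct contact with the pore.

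Each peak is a stretch along a transcript with a whole number of sequenced tags and a fold enrichment that the authors' peak caller gave. A gene's tags were summed over its peaks on the transcript with the most tags, its density is tags per kb of peak and its fold is the highest among those peaks. The 48 genes carried 71 peaks and 5622 of the 133739 tags over all 2440 peaks, a share of 4.20% (exact Clopper-Pearson interval 4.10 to 4.31%, counting error only). The library's sequencing depth is unknown.

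A peak was found for 48 of the 159 genes that carry such symbols among the protein-coding genes of the reference table, or 30.2%. Over all 20056 protein-coding genes of that table the share was 7.89%. The share among the named genes was thus several times the background share. Which of these genes the cells express was not analysed here, and a table of all genes holds many that are silent in any cell line.

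The share with a peak was counted for each subfamily. In nonsense-mediated decay 6 of 10 genes had a peak (60.0%), among transport receptors 12 of 26 (46.2%) and among pore proteins 11 of 25 (44.0%). Of the PABP, LARP and PUM genes 6 of 18 had one (33.3%), and of the initiation factors and their regulators 13 of 56 (23.2%). The exact intervals of these shares all overlapped, for example 26.2 to 87.8% for nonsense-mediated decay and 13.0 to 36.4% for initiation factors. Their order is therefore not resolved. The elongation factors and their regulators had 0 of 14, the Ran cofactors 0 of 6 and the NXF genes 0 of 4. EEF1A1, an abundant elongation factor left out by the rule, did have a peak, with 552 tags and a fold of 5.37, so the 0 of 14 holds only for the other elongation genes. The exact upper limits of these 3 shares, 23.2, 45.9 and 60.2%, all lie above the background of 7.89%, and these few genes are not set apart from it. EEF2, EEF1G, PABPC1, RANGAP1, RANBP1 and NXF1 were thus all without a listed peak. No level can be given for them.

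**Figure D1:**
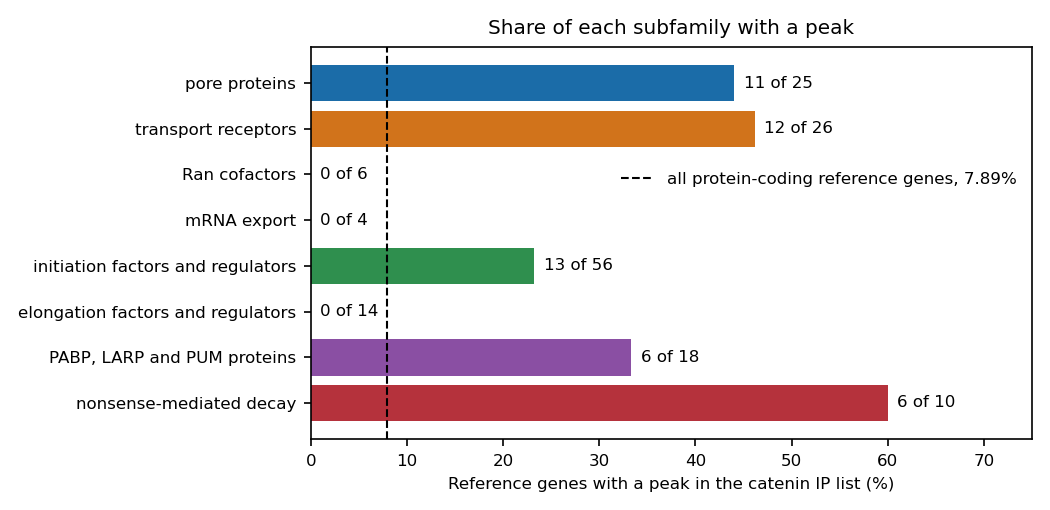
Percentage of the reference table's genes of each subfamily that had a peak in the catenin IP list, with counts beside the bars and the share over all protein-coding genes (7.89%) as a dashed line. Nonsense-mediated decay, transport receptors and pore proteins reach 44.0 to 60.0%, while Ran cofactors, NXF genes (mRNA export) and elongation factors other than EEF1A1 stand at 0.

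By density, the members lay above most genes with a peak. Their median was 37.3 tags per kb, against 29.8 over all 1658 genes, and 33 of the 48 exceeded that overall median. Tags per gene ran from 12 to 640 with a median of 77, against 41 over all genes, and 16 of the 48 members (33.3%) had at least 100 tags, where 21.4% of all genes did. The median fold of 7.77 was close to the 7.56 of all genes, and 24 of the 48 lay above it. A fold of at least 10 was reached by 20 members (41.7%), against a background of 30.3%. This difference depended on the peaks used. With a score of at least 50 it was kept, at 54.1% of members and 42.5% of all genes. With a score of at least 100 the shares were close, 66.7% of members and 68.5% of all genes. Among peaks off the fold steps described below it turned, with 14.8% of members and 24.3% of all genes. The 14 members with at least 2 peaks made up 29.2%, near the background of 31.5%. With a score of at least 100, the medians of tags came closer, 91.5 for members and 80 over all genes, as did those of density, 45.6 and 43.0 tags per kb.

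**Figure D2:**
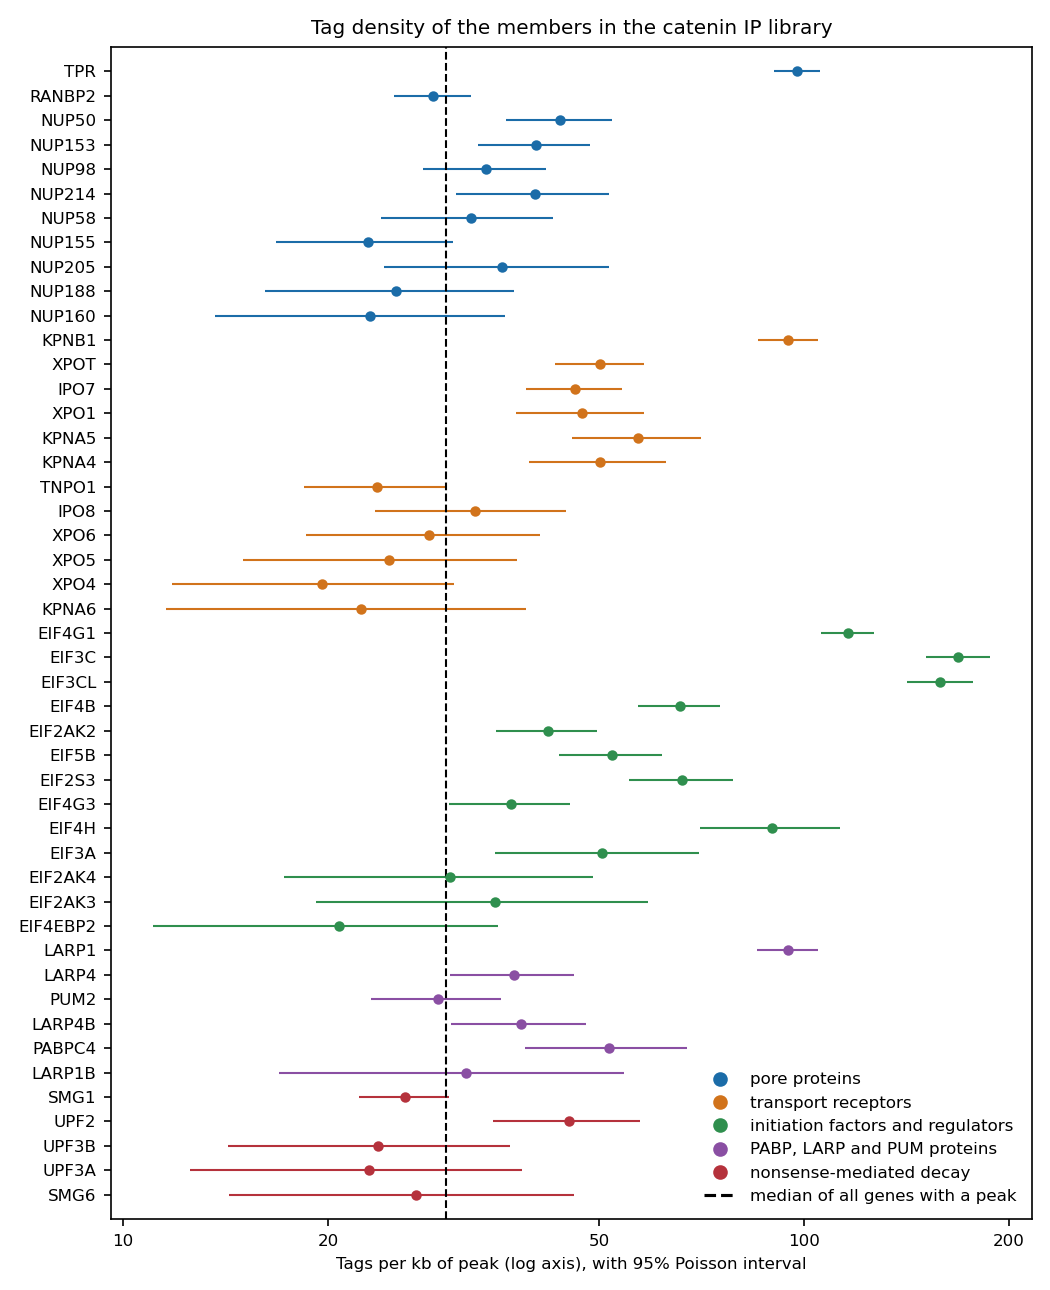
Tags per kb of peak (log axis) for 47 of the 48 members in the 1 IP library, coloured by subfamily and ordered by tags within it, with 95% Poisson intervals that cover counting error only. The dashed line is the median of all genes with a peak, 29.8; EIF3C, EIF3CL, EIF4G1, TPR, KPNB1 and LARP1 lie at 94.9 or more.

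Among the pore proteins, the 3 basket genes held the most tags of any place in the pore, 876 of 1428, but 640 of these were from TPR. The cytoplasmic filament genes held 293, more than the basket genes NUP153 and NUP50 together. TPR, the coiled-coil protein that forms the basket's filaments, had 640 tags (Poisson interval 591 to 692) in 1 long peak, nt 229 to 6767 of ENST00000367478. Its fold of 34.73 and its tags were the highest of all 48 members, and it ranked 18 by tags and 22 by fold among all 1658 genes. NUP153, which anchors the basket, had 111 tags at nt 24 to 2774 of ENST00000262077 with a fold of 15.05. NUP50, a mobile basket protein that helps importins let go of cargo, had 125 tags in 3 peaks of ENST00000347635 and a highest fold of 12.73. All 3 basket genes thus had a peak, with folds from 12.73 to 34.73.

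The cytoplasmic filaments had a peak on 2 of 4 genes. RANBP2, the large filament protein that binds Ran and carries SUMO ligase activity, had 5 peaks, more than any other member but SMG1. They covered nt 122 to 9365 of ENST00000283195 with gaps and held 21, 18, 77, 35 and 81 tags from the start of the transcript on. The folds were 9.26, 7.52, 9.26, 12.73 and 11.58, so no stretch of the transcript carried the enrichment alone. With 28.6 tags per kb (25.0 to 32.5), RANBP2 lay below TPR (97.9, interval 90.4 to 106) by a factor of 3.43 in density. NUP214, a filament protein that docks export complexes, had 61 tags at nt 1803 to 3317 and a fold of 15.63. NUP88 and NUP42 had no peak.

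Among the members, the structural rings had fewer tags. In the inner ring 3 of 5 genes had a peak, with 24 to 46 tags and folds from 5.04 to 11. NUP155, which links the ring to the membrane, had its 46 tags in a pair of peaks at nt 2170 to 3221 and nt 3389 to 4345, and the fold of 11 was that of NUP205. In the outer ring only NUP160 of 6 genes had a peak, with 18 tags and a fold of 6.65. Of 4 central channel genes, NUP98 had 93 tags over 2 peaks with folds of 3.36 and 4.99, and NUP58 had 49 tags with a fold of 5.37. NUP98 encodes a precursor that is cut into a channel protein and an outer ring protein, so it also belongs with the outer ring. Among the members, the lowest fold of basket and filament genes, 12.73, was above the highest of ring and channel genes, 11. Other pore genes fall outside the symbol rule and were not counted in these groups, whatever their place in the pore. They had folds of 14.47 (AHCTF1), 12.16 (POM121C) and 9.26 (POM121). The split therefore holds only for the members. The split nearly coincides with the stepwise folds described below: the highest folds of all basket and filament genes are multiples of 0.5788, and among the ring and channel genes only that of NUP205 is. This grouping by place in the pore was made after the values were seen.

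Among the transport receptors, KPNB1, importin beta, had the most tags, 377 (340 to 417), in a peak at nt 498 to 4468 of ENST00000290158. Its density was 94.9 tags per kb (85.6 to 105), but its fold was only 5.69, rank 1328 of 1658. KPNA5, an importin alpha, was high on both measures, with 57.1 tags per kb (45.7 to 70.6; rank 185). Its 86 tags lay far along ENST00000368564, at nt 7483 to 8987, with a fold of 22 (rank 76). Between these receptors the density of KPNB1 was 1.66 times higher and its fold 0.259 times that of KPNA5. The other importin alpha genes with a peak were KPNA4 (76 tags, fold 4.57) and KPNA6 (12 tags, fold 5.79), the latter with the fewest tags of all members. KPNA1, KPNA2, KPNA3 and KPNA7 had none.

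Of the exportins, 5 of 6 had a peak, with folds in a narrow range from 6.38 to 9.58. XPOT, the exportin of tRNAs, had 176 tags in a pair of peaks at nt 140 to 1966 and nt 2606 to 4286 of ENST00000332707, with folds of 8.61 and 7.94. XPO1, the receptor for leucine-rich export signals, had 87 tags at nt 535 to 2379 of ENST00000401558 and the highest exportin fold, 9.58. XPO4, XPO5 and XPO6 had 19 to 27 tags, and XPO7 had no peak. IPO7, an importin for ribosomal proteins among other cargoes, had 153 tags in 2 peaks with folds of 7.01 and 3.47. Its close relative IPO8 had 40 tags in 1 peak but a higher fold, 12.16. The densities of IPO7 (46.1 tags per kb, 39.1 to 54.0) and IPO8 (32.8, 23.5 to 44.7) had overlapping intervals. TNPO1, which imports RNA-binding proteins, had 70 tags and a fold of 6.02, and TNPO2 and TNPO3 had no peak.

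The initiation factors held the most tags of any subfamily, 1980 over 13 genes, and the highest median density, 52.2 tags per kb. EIF4G1, the scaffold that joins the cap-binding protein to eIF3, led with 489 tags (447 to 534) in a peak at nt 1033 to 5249 of ENST00000346169. Its density of 116 tags per kb (106 to 127) was 3.12 times that of its paralog EIF4G3 (37.1, 30.1 to 45.4), and the intervals did not overlap. Their folds were 12.45 and 15.05, but over the listed transcripts that of EIF4G3 ran from 9.84 to 15.05 and that of EIF4G1 from 12.45 to 12.73, so the order of fold turned with the transcript. EIF4G2, the third gene of the family, had no peak. Of 7 other genes of cap-binding complexes and their helpers, only EIF4B (205 tags, fold 5.36) and EIF4H (72 tags, fold 3.47) had one, both cofactors of the helicase. EIF4H had the lowest fold of the 48 members, yet a density of 89.9 tags per kb (70.3 to 113). EIF4E, EIF4A1 and EIF4A2 had none.

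In eIF3, the scaffold that holds the small subunit, 3 of 14 genes had a peak. EIF3C had 331 tags at nt 93 to 2055 of ENST00000331666 and EIF3CL 312 tags at nt 30 to 1995 of ENST00000380876, with folds of 7.47 and 7.99. Their densities, 169 and 159 tags per kb, were the highest of all members and ranked 9 and 11 of 1658. EIF3CL is a near-identical copy of EIF3C, and both summits lay 777 nt into the peak. No source used here says how tags that match both copies were assigned, so the pair may hold the same molecules and the values of each are uncertain. EIF3A, the largest subunit, had only 35 tags at nt 112 to 804 of ENST00000369144, with a fold of 15.63, the highest among the initiation factors. The other 11 eIF3 genes had no peak.

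The eIF2 kinases, which slow initiation under stress, had a peak in 3 of 4 cases. EIF2AK2 (PKR, activated by double-stranded RNA) had 138 tags in 3 peaks at nt 273 to 2120, nt 3211 to 3881 and nt 4051 to 4810 of ENST00000233057. These held 90, 17 and 31 tags with folds of 5.19, 5.21 and 11.58, of which the first is not a multiple of the common step described below and the others are. EIF2AK3 (PERK, the kinase of the endoplasmic reticulum) had 14 tags and a fold of 8.10, and EIF2AK4 (GCN2, activated by uncharged tRNA) had 16 tags and a fold of 7.52. EIF2AK1 had no peak. Of the kinases' substrate complex, only EIF2S3, the gamma subunit, had one, with 128 tags and a fold of 6.30. The 5 genes of eIF2B, the exchange factor of eIF2, had none. EIF5B, the GTPase of subunit joining, had 131 tags at nt 61 to 2569 with a fold of 13.05, and EIF4EBP2, a repressor of cap binding, had 13 tags with a fold of 5.63.

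Among the RNA-binding proteins, LARP1, which controls mRNAs of the translation machinery, had the most tags. Its 2 peaks on ENST00000336314, at nt 185 to 3098 and nt 3280 to 4234, held 307 and 60 tags with folds of 23.74 and 19.26. Its summed tags were 28.2 times those of its paralog LARP1B (13 tags, fold 7.52), but the density only 2.98 times (94.9 against 31.9 tags per kb). LARP4 and LARP4B, which bind poly(A) and the poly(A)-binding protein, had 91 and 78 tags, each in 2 peaks, and folds of 13.31 and 12.16. Their densities, 37.5 (30.2 to 46.0) and 38.4 (30.3 to 47.9) tags per kb, differed by less than their counting intervals. PUM2 had 83 tags in 2 peaks with folds of 9.26 and 12.16. PABPC4 was the only poly(A)-binding protein gene with a peak, with 55 tags at nt 1024 to 2087 and a fold of 5.81.

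**Figure D3:**
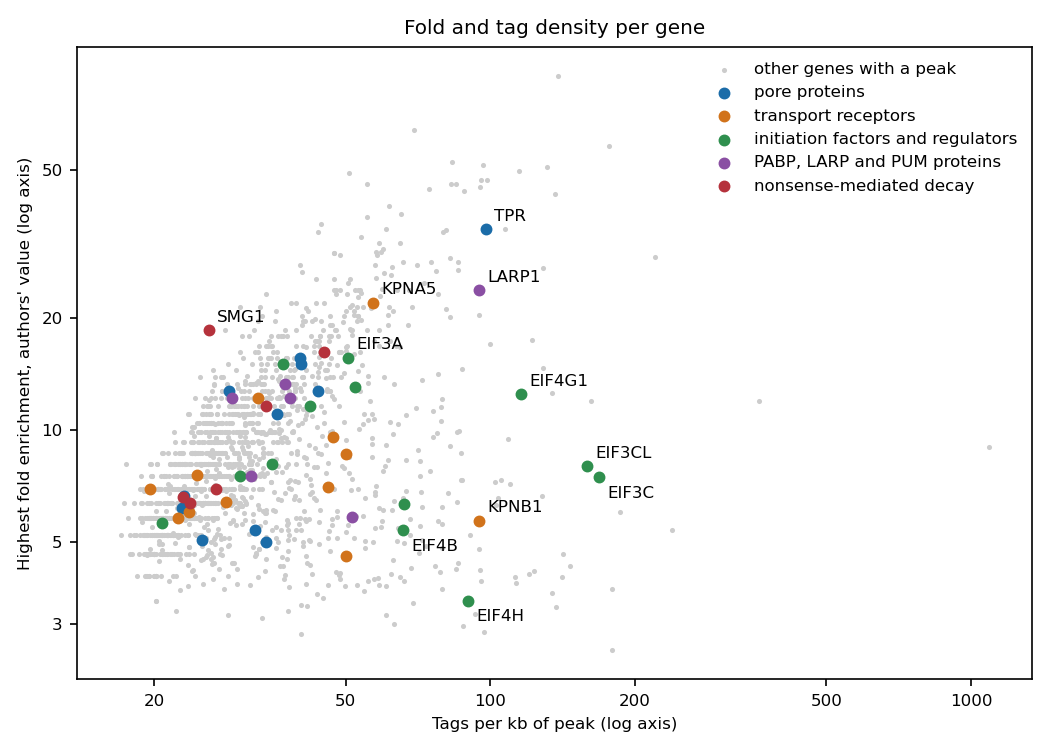
Highest fold of each gene (the authors' value) against its tags per kb of peak, both on log axes, for the 48 members by subfamily and for all other genes with a peak in grey. TPR and LARP1 are high on both axes, whereas EIF3C, EIF3CL, KPNB1 and EIF4H combine a high density with folds from 3.47 to 7.99; SMG1 has a fold of 18.52 at 25.9 tags per kb.

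In nonsense-mediated decay, SMG1, the kinase that phosphorylates UPF1, had 6 peaks, the most of any member. They ran from nt 2422 to nt 12220 of ENST00000446231 and held 47, 35, 16, 24, 21 and 31 tags in transcript order. The folds were 6.37, 18.52, 4.05, 12.16, 6.95 and 4.63, and the density over all 6 peaks was 25.9 tags per kb (22.2 to 30.1), with 19.5 to 35 in single peaks. Partial copies of SMG1 exist in the genome as pseudogenes, and no source used here says how tags shared with them were counted. UPF2, the bridge between UPF1 and UPF3 proteins, had a peak of 53 tags at nt 19 to 1042 of ENST00000357604 with a fold of 16.21 and a further peak of 13 tags. Of the UPF3 paralogs, UPF3A had 14 tags and UPF3B 19, at folds of 6.59 and 6.37. SMG6, the endonuclease of the pathway, had 13 tags and a fold of 6.95. UPF1, the central helicase, had no peak, and neither did SMG5, SMG8 or SMG9.

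Along the transcripts, the first peak of 26 of the 48 members (54.2%) began within the first 300 nt, where 35.8% of all 1658 genes had theirs. This measure was added after the values were seen. The peaks of TPR, RANBP2 and KPNB1 summed to 6539, 8126 and 3971 nt, while KPNA5 and SMG1 had nothing listed before nt 7483 and nt 2422. Summed peak length per member ran from 398 to 8126 nt, with a median of 1889 nt against 1295 nt over all genes. Across the 48 members, tags and peak length were correlated (Spearman's rho 0.902, and 0.923 over all 1658 genes; genes share the library and tags are counted within the length). The rank correlation of fold with tags was lower, 0.358 among members and 0.559 over all genes.

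**Figure D4:**
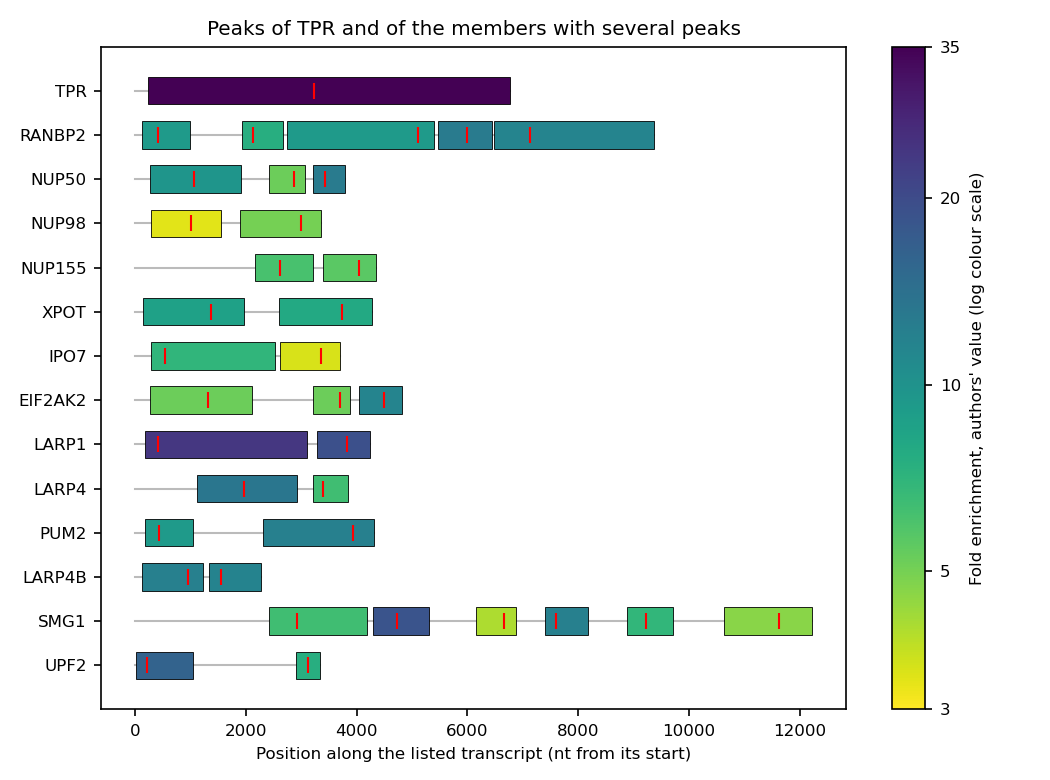
Peaks along the listed transcript, in nt from its start, of TPR and 13 of the 14 members with at least 2 peaks; bars are coloured by the authors' fold and red ticks mark the summits. The grey line ends with the last peak, not with the transcript; RANBP2 and SMG1 carry 5 and 6 peaks, and TPR a single bar of 6539 nt.

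The authors labelled 22 of the 71 peaks as coding sequence (31.0%, against 39.7% of all 2440 peaks), 20 as 3′ untranslated (28.2%, the same as over all peaks) and 19 as both (26.8% against 19.7%). These labels did not follow the order of the transcript. Of 5 member transcripts with a coding-only peak and a peak labelled 3′ untranslated, 3 (NUP98, SMG1 and UPF2) had the latter upstream of every coding-only peak. The UPF2 peak at nt 19 to 1042, for example, bears the label 3′ untranslated. The labels were therefore not used to place peaks.

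The folds took stepwise values in many peaks. Multiples of 0.5788 (tolerance 0.0051) accounted for the fold in 40 of the 71 member peaks (56.3%) and in 69.6% of all 2440 peaks. In 21 members every peak lay on these multiples, with a median fold of 12.16. In 22 members none did, with a median fold of 6.34 but a higher median density, 48.6 against 35.2 tags per kb. KPNB1, XPO1, XPOT, EIF4G1, EIF3C and EIF4B belong to the latter, and TPR, RANBP2, KPNA5, EIF4G3 and SMG1 to the former. Over all genes the medians of fold were 8.10 and 6.34. Folds of the 2 kinds may not share the same denominator, which was not tested. The order of fold between, for example, KPNA5 and KPNB1 is therefore uncertain. Density in turn takes no account of the input or of expression level.

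Among 120 listed transcripts of the 48 members, values depended on the transcript chosen in some genes. Of the 30 members with several listed transcripts, 21 had tag sums within 1.5 times of each other. EIF4G1 ranged only from 481 to 489 tags over 9 transcripts. The other 9 varied more, among them EIF2AK2 (17 to 138 tags), LARP4 (22 to 91), SMG1 (47 to 174) and NUP98 (40 to 93). No member peak had the same start, end and tags as a peak of another gene, but positions along different transcripts would rarely coincide even for shared reads. By equal length and tag count, 9 members had a peak like that of another gene, for example RANBP2 with PAM and NUP50 with CAND1. How often this occurs over all genes was not computed. Neither EIF3C with EIF3CL nor RANBP2 with the RGPD genes matched in this way, so the count does not show shared reads. RGPD5 and RGPD6, relatives of RANBP2, had 57 tags each with equal peak lengths, and RGPD8 had 33. Whether tags of RANBP2 were also counted for these copies is not known.

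The genes around these families, named in the same pathways but outside the symbol rule, were taken from lists written with knowledge of earlier results. Of 34 other nuclear transport genes 12 had a peak (35.3%), with a median of 32.0 tags per kb and a median fold of 8.68, and 5 reached a fold of 10. They were led by AHCTF1 (ELYS, which seeds pores on chromatin), with 198 tags and a fold of 14.47. Among the 5 are the copies RGPD5, RGPD6 and RGPD8, each with a fold of 10.42. RGPD5 and RGPD6 also had equal tags and peak lengths, so they may repeat the same signal. CSE1L, the exportin that returns importin alpha, had 32 tags and a fold of 4.15. Of 47 genes of translation control and mRNA decay 19 had a peak (40.4%), with a median of 29.3 tags per kb. Their median fold was 7.96, and 7 reached a fold of 10. Beside both lists, 7.89% of all protein-coding genes had a peak. Of all genes with a peak, 30.3% had a fold of at least 10. CNOT1, the scaffold of the main deadenylase, had 192 tags and a fold of 17.94, and DDX6, a helicase of repressed mRNAs, had 147 tags and a fold of 23.73. GSPT1, a translation release factor, had 160 tags but a fold of 4.82, and the exonuclease gene XRN2 144 tags at 3.79. PPP1R15B, which directs a phosphatase to eIF2, had 158 tags and a fold of 23.33. In the KEGG annotation that the authors joined, 28 of the 47 genes in RNA transport and 7 of the 19 in mRNA surveillance were members. The importins IPO7, IPO8 and KPNA4 to KPNA6, the LARP genes and PUM2 were among the 17 members in neither pathway.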

How the data were processed

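The file lists peaks on Ensembl transcripts of the catenin IP sample; 1 library per group was available, so no comparison has replicates. The tag count per peak, the fold enrichment (a ratio) and a score whose column name was lost are as the authors deposited them, per the file headers. The submitters' processing notes name hg18. The aligner, peak caller and background library are not given in these sources. Positions are nt along the transcript, counted from 1; the summit column is an offset within the peak. For each symbol the transcript with the most summed tags was used (ties: lowest identifier). Symbols were matched to protein-coding entries of the RefSeq table for GRCh38.p14, used for names only; all 48 members matched. Members and lists were chosen with earlier results of these data known. Named with values were, per subfamily, the 3 members with the most tags, the 2 with the highest fold and all with several peaks; other members named were chosen after their values were seen, and a few genes are left without values. Intervals are at 95% and cover counting error only. Whether molecular identifiers were used is not given in these sources, so tags may be copies of the same molecule. The step of the folds was found by a grid search tested on simulated data. Python 3.11.15, pandas 2.3.3 and SciPy 1.17.1 were used. No sequence of the peaks was read, as no transcript sequences were used here.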

Additional observations from a re-analysis of the deposited data

How the results depend on the processing

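No paired analysis was possible because either group consists of 1 library. Of 72 values under alternatives, 57 stayed within 1.5 times (shares: within the interval of the main value) and 15 moved. Counting every transcript on its own gave 120 units with 160 peaks, 55 of them with a fold of at least 10, since it counts more units. Restricting peaks to a score of at least 100 left 30 member genes with 37 peaks and a median fold of 12.16, and the median over all 670 genes left was 12.16 too. Alternatives chosen after seeing the data kept only peaks on the multiples of the fold (26 genes, 40 peaks, median tags 50.5, median fold 12.16) or only peaks off them (27 genes, 31 peaks, 4 genes with a fold of at least 10, 14.8% with at least 2 peaks), both of which count fewer peaks. The median density of the members, 35.5 to 47.2 tags per kb over all alternatives, stayed above that of all genes in the 6 alternatives where both were computed. With the score filters and either kind of peak alone, the median fold of members was 11.58, 12.16, 12.16 and 6.38, against 9.26, 12.16, 8.10 and 6.78 over all genes, so its place beside the background depended on the setting. The share of members with a fold of at least 10 was 65.4% on the multiples (all genes 33.3%) and 14.8% off them (all genes 24.3%), a turned direction. By equal length and tags, 9 members had a peak like that of another gene, against 0 by position, without a count over all genes to set beside it. Accepting older symbols added EIF6 through the alias EIF3A, which is another gene. Many members rest on few tags: 12 in KPNA6, 13 in EIF4EBP2, LARP1B and SMG6.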
